A study of Mus musculus with 16 samples.

Results

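Cell cycle genes were followed in a dividing and beating line of mouse atrial heart muscle cells, HL-1. The line descends from an atrial tumour of a mouse carrying the SV40 large T antigen, a viral protein that binds the RB and p53 proteins. The set was a list of 36 genes named by their role in the cycle: 5 inhibitors, 10 G1/S cyclins, kinases and regulators, 8 genes of replication licensing and S phase, and 13 of G2 and mitosis. Of 31758 genes on the array, 17771 could be tested, among them 34 of the 36. Ccnd2, encoding cyclin D2, had 3 probes, each well above background on 0 of 16 arrays, and no probe could be named for Ccnd1, encoding cyclin D1. The 34 tested genes were well above background on every array on which they were measured. Ccna2 had no usable spot on Vehicle 1, nor Foxm1 on Dex 3, so the fits drop those values.

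The cells were treated for 6 h with PBS as vehicle, with 100 nM dexamethasone (Dex, a synthetic glucocorticoid), with 10 nM estradiol (E2), or with both (Dex+E2). Each of the 4 labels had 4 one-colour arrays, numbered 1 to 4, and the series design speaks of independent experiments. No genetic change separated the groups, and all of them were the same line grown in Claycomb medium. Levels are log2 values of the processed signal after division by each array's own 75th percentile, so that a difference of 1 is a doubling. On each array 58.6% to 65.6% of the probes stood well above background. Atrial cardiomyocyte markers were measured on 16 of 16 arrays for 10 of 10 genes. Smooth muscle markers were measured on 16 arrays for 4 of 4 genes and fibroblast markers for 5 of 7. Of 6 endothelial markers, 2 were above background on 16 arrays and 2 on 0 arrays. Of 6 immune cell markers, 2 were above background on 16 arrays and 3 on 0 arrays. The summed linear level of the fibroblast list ran from 32.7 to 49.8 on vehicle, 29.0 to 44.8 on Dex, 32.2 to 45.7 on E2 and 32.5 to 47.9 on Dex+E2.

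Per1, a clock gene that glucocorticoids induce, did not follow the labels. Its level was 1.75 to 1.99 on 8 arrays: the fourth of every label, and also the first and second of Dex and of Dex+E2. The remaining 8 arrays had levels of -1.29 to -0.75, which leaves a gap of 2.50. The arrays labelled Vehicle 4, Dex 3, E2 4 and Dex+E2 3 therefore stood on the side opposite to most arrays of their treatment, and every direction below is that of the label and not known to be that of the hormone. Vehicle 1 correlated with the other arrays at 0.973 to 0.982 over genes. Median correlations were lowest on Vehicle 1 to 3, at 0.980, 0.985 and 0.982, and were 0.988 to 0.994 on the remaining arrays. Each gene was described by label and, as a description with no test, between the 8 Per1-high and the 8 Per1-low arrays.

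In outline, a cell passes from G1 into S phase when D cyclins with Cdk4 or Cdk6, and then E cyclins with Cdk2, phosphorylate the Rb1 protein and release E2F transcription factors. E2F drives the genes of DNA replication, and later a second wave of genes, read through CHR elements and CCAAT boxes in their promoters, drives G2 and mitosis. Inhibitors such as p21 (Cdkn1a), p27 (Cdkn1b) and p57 (Cdkn1c) bind cyclin-kinase complexes and hold this sequence back. Cells that stop dividing lower the replication and mitosis genes together, which is why these are read as groups.

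The promoters of 4 genes are shown as examples of the letters known from replication, mitosis and p53-responsive genes. Each is the 120 bases before the RefSeq start site on the gene's own strand, 5′ to 3′ (RefSeq, build GRCm38.p6), with the motif in capitals. In Mcm6 the capitals mark the E2F motif, in Cdk1 and Cdc20 the CHR motif and the CCAAT box, and in Cdkn1a the repeat unit of the p53 response element.
Mcm6, chr1:128359706-128359825, minus strand: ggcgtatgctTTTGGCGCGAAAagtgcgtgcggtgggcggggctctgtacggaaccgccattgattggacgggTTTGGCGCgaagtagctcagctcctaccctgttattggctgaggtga
Cdk1, chr10:69352913-69353032, minus strand: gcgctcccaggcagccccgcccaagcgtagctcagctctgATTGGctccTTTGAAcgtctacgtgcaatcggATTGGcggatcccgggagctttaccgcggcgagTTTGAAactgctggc
Cdc20, chr4:118437344-118437463, minus strand: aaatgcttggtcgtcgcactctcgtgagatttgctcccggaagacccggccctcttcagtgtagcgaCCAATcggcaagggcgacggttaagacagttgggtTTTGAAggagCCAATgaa
Cdkn1a, chr17:29090859-29090978, plus strand: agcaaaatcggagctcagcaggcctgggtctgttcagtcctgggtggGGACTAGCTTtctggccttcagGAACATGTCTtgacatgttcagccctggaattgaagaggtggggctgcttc

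The letters searched on both strands were TTTGAA for the CHR, CCAAT for the CCAAT box, and TTTCCCGC, TTTGGCGC, TTTCGCGC and TTTGCCGC for E2F. Some E2F matches overlap, as in the first capital run of Mcm6. For the p53 repeat unit the letters were RRRCWWGYYY, where R is A or G, W is A or T and Y is C or T. Of the 36 genes, 27 had an entry, giving 31 windows of 250 bases before to 50 after a start. The CHR letters stood in 7 of 10 windows of G2 and mitosis genes (70%), against 17.9% of 32851 windows of all genes, and the CCAAT letters in 9 of 10 (90%), against 37.4%. E2F letters stood in 5 of 8 windows of replication genes (62.5%), against 2.26% of all windows. The palindromic glucocorticoid response element stood in 0 of the 31 windows and in 0.00913% of all windows. The repeat unit of the p53 response element stood in 2 of the 31 windows (6.45%), against 8.36% of all. The Cdkn1a window shown above had 2 matches, and the other Cdkn1a window had 0. A match is a description of the letters in this window and not a site shown to be used.

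**Figure D1:**
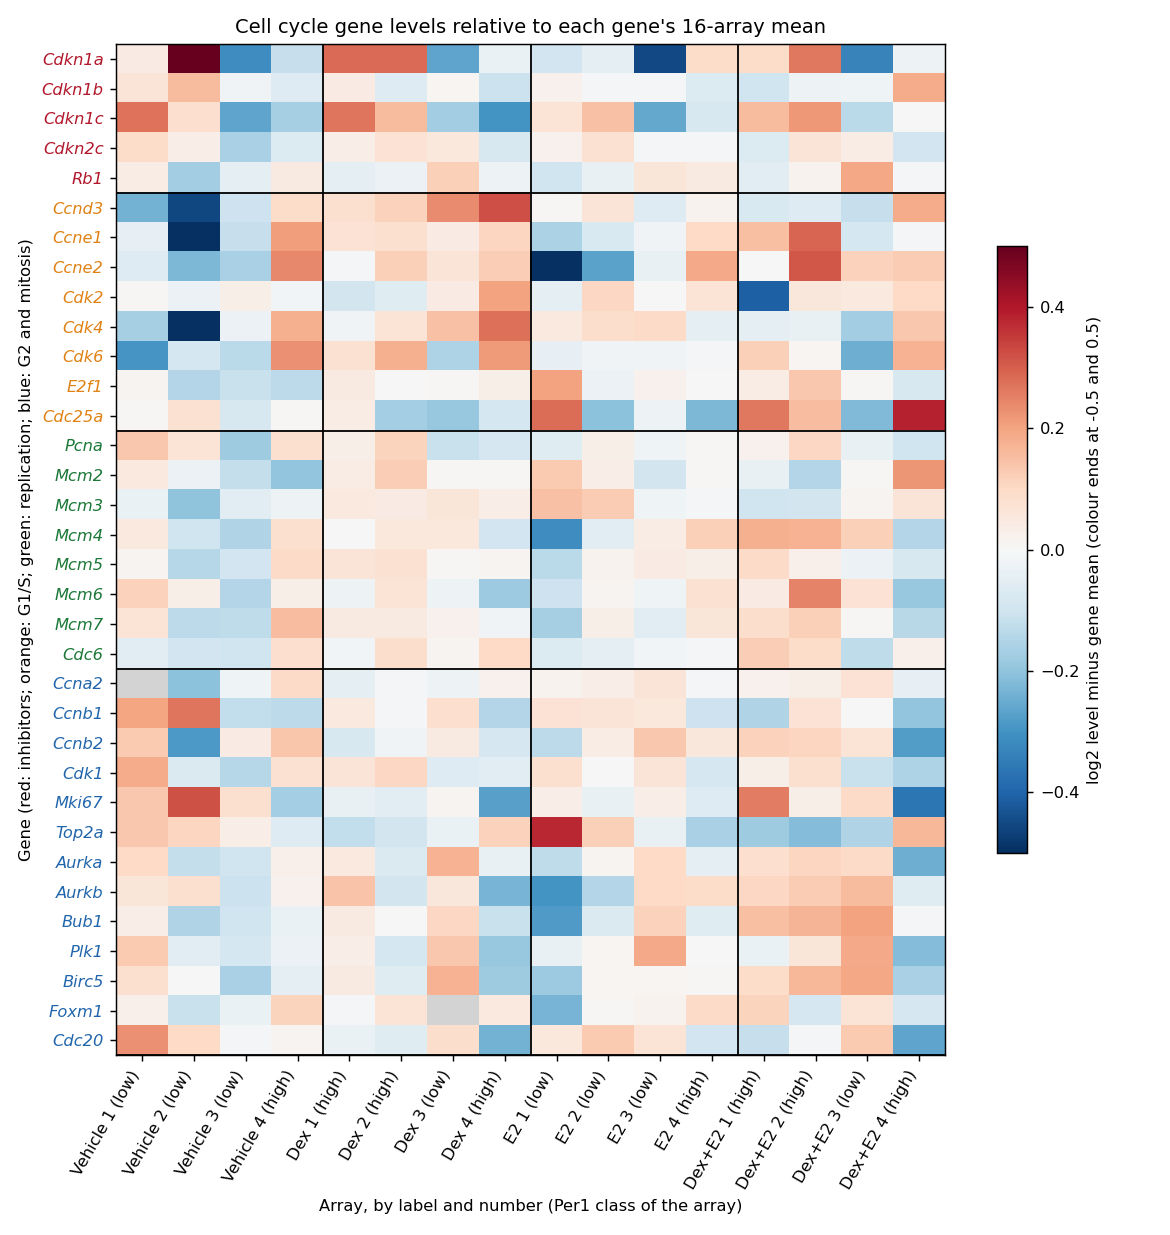
Level of each of the 34 tested cell cycle genes (rows, grouped by role) on each of the 16 arrays (columns, by label and number, with the Per1 class in brackets; inhibitors, G1/S, replication, then G2 and mitosis from top to bottom), as log2 level minus the gene's mean over the arrays; grey cells were not measured. Vehicle 2 is blue (low) in most G1/S rows, where it is the lowest of 16 arrays for 4 of 8 genes, and Dex+E2 4 is blue in most G2 and mitosis rows, where it is the lowest for 6 of 13.

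The comparison of each hormone with vehicle asked whether the cell cycle genes moved within 6 h. None of the 34 genes passed the test in any label comparison. Limma's adjusted p, over all 17771 genes, was under 0.05 for 0 genes (0%) in each of the 8 comparisons, counting the interaction and the average effect of each hormone. Against vehicle, the 95% intervals of the 34 genes spanned -0.43 to 0.58 for Dex, -0.59 to 0.43 for E2 and -0.46 to 0.47 for Dex+E2. All of these intervals lay within a doubling in either direction. At an unadjusted p under 0.05, limma counted 2 of the 34 genes for Dex, against 10.9% of all genes. It counted 2 for E2, against 3.84%, and 1 for Dex+E2, against 5.57%. The counts were 0 for Dex+E2 against Dex (all genes 3.19%), 2 for Dex+E2 against E2 (4.02%) and 2 for the interaction (3.72%). For the average effects they were 3 for Dex (all genes 10%) and 0 for E2 (3.67%).

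**Figure D2:**
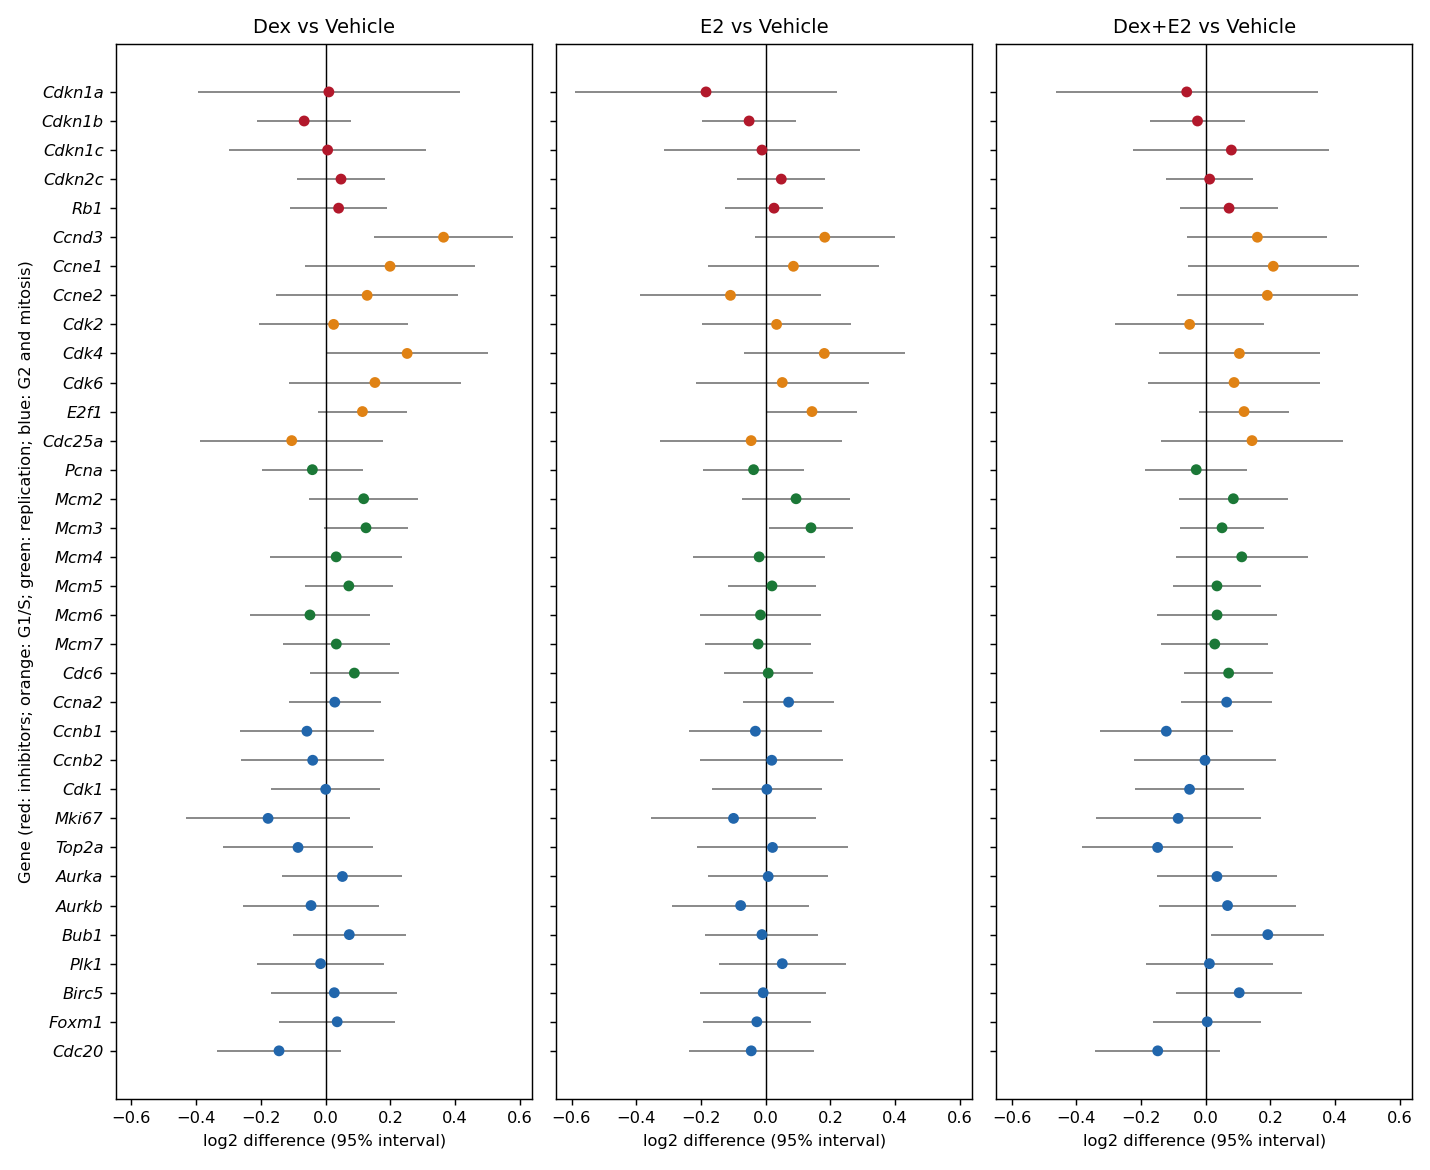
Difference from vehicle (log2, points) with its limma 95% interval (lines) for the 34 genes in arrays labelled Dex, E2 and Dex+E2, with 4 arrays a label. The point farthest from 0 is Ccnd3 on the arrays labelled Dex, at 0.36, and all the intervals lie between -0.59 and 0.58.

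Among the inhibitors, Cdkn1a encodes p21, the kinase inhibitor that p53 induces. It was at 3.45, 4.03, 3.10 and 3.29 on Vehicle 1 to 4 and at 3.69, 3.69, 3.15 and 3.38 on Dex 1 to 4. On E2 1 to 4 it was at 3.31, 3.36, 2.96 and 3.50, and on Dex+E2 1 to 4 at 3.50, 3.68, 3.07 and 3.39. Vehicle 2 was the highest of the 16 arrays and array 3 the lowest of each label, so the labels overlapped throughout. The difference from vehicle was 0.01 ± 0.19 (SE, n = 4 per label) with the arrays labelled Dex, -0.18 ± 0.19 with E2 and -0.06 ± 0.19 with Dex+E2.

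Cdkn1c encodes p57, an imprinted inhibitor of cyclin-dependent kinases that glucocorticoids induce in several cell types. It was at 4.35, 4.16, 3.81 and 3.91 on Vehicle 1 to 4 and at 4.34, 4.23, 3.90 and 3.77 on Dex 1 to 4. It was at 4.14, 4.22, 3.82 and 3.99 on E2 1 to 4 and at 4.23, 4.29, 3.94 and 4.07 on Dex+E2 1 to 4. Within each label arrays 1 and 2 were higher than arrays 3 and 4, and the labels had nearly the same means, from 4.04 to 4.13. Dex differed from vehicle by 0.01 ± 0.14 (SE), with a 95% interval of -0.30 to 0.31.

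The other inhibitors varied less. Cdkn1b, encoding p27, had means between 2.15 ± 0.07 (SD, n = 4) on Dex and 2.22 ± 0.10 on vehicle. Rb1, the retinoblastoma gene, had means between 1.88 ± 0.10 and 1.95 ± 0.11, and Cdkn2c, encoding the Cdk4 and Cdk6 inhibitor p18, between 4.64 ± 0.11 and 4.69 ± 0.07. With the probes used, differences of these 3 genes from vehicle lay within -0.07 and 0.07. A second Cdkn1b probe, correlating at 0.82 with the probe used, differed by -0.21 between Dex and vehicle.

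The G1/S genes held the largest difference. Ccnd3, encoding cyclin D3, was at 2.02, 1.80, 2.16 and 2.35 on Vehicle 1 to 4 and at 2.34, 2.37, 2.50 and 2.58 on Dex 1 to 4. It was at 2.27, 2.32, 2.19 and 2.28 on E2 1 to 4 and at 2.18, 2.20, 2.15 and 2.45 on Dex+E2 1 to 4. Dex 2, 3 and 4 lay above every vehicle array, and Dex 1 lay just below Vehicle 4. The difference of Dex from vehicle was 0.36 ± 0.10 (SE), with a limma adjusted p = 0.451, and it did not pass the test. Dex+E2 differed from Dex by -0.20 ± 0.10, and the interaction was -0.39 ± 0.14 with a limma adjusted p = 0.999.

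Cdk4, a partner of the D cyclins, followed at 0.25 ± 0.12 (SE) between Dex and vehicle, with a limma adjusted p = 0.455. Vehicle 2 was its lowest array, at 1.60, and Dex 4 its highest, at 2.39. Cyclin E1 (Ccne1) was at 3.36, 2.86, 3.29 and 3.61 on Vehicle 1 to 4, at 3.48, 3.49, 3.45 and 3.51 on Dex 1 to 4, at 3.25, 3.33, 3.39 and 3.50 on E2 1 to 4, and at 3.55, 3.69, 3.32 and 3.39 on Dex+E2 1 to 4. Again Vehicle 2 was the lowest of 16. Ccne1 differed from vehicle by 0.20 ± 0.12 with Dex, 0.09 ± 0.12 with E2 and 0.21 ± 0.12 with Dex+E2.

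Ccne2, encoding cyclin E2, was at 2.15, 1.99, 2.06 and 2.46 on Vehicle 1 to 4 and at 2.21, 2.34, 2.28 and 2.34 on Dex 1 to 4. It was at 1.69, 1.95, 2.18 and 2.41 on E2 1 to 4 and at 2.22, 2.53, 2.33 and 2.35 on Dex+E2 1 to 4. The spread was widest on vehicle and E2, where array 4 was the highest. Its average Dex effect was 0.21 ± 0.09 (SE), with a limma adjusted p = 0.492.

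E2f1, the founding member of the E2F family, had the smallest unadjusted p of the 34 genes for the average E2 effect, at 0.07 ± 0.05. Its levels were 1.49, 1.33, 1.37 and 1.34 on Vehicle 1 to 4, 1.52, 1.47, 1.48 and 1.51 on Dex 1 to 4, 1.68, 1.45, 1.50 and 1.48 on E2 1 to 4, and 1.51, 1.61, 1.48 and 1.40 on Dex+E2 1 to 4. Vehicle 1 overlapped each of the other labels. Cdk2, the partner of cyclin E, ranged from -2.59 to -1.98 over the 16 arrays, and Cdc25a, the phosphatase that activates it, from -2.48 to -1.87. As a group, 7 of the 8 measured G1/S genes had positive Dex differences, with a median of 0.14, against 43.3% positive and a median of -0.03 over all genes. For Dex+E2 the group was positive in 7 of 8 (median 0.13) and for E2 in 6 of 8 (median 0.07). The 3 comparisons share the vehicle arrays, and Vehicle 2 was the lowest of 16 arrays for 4 of the 8 genes, against 18.1% of all genes. Under normexp background correction the median turned negative for E2, at -0.28, and for Dex+E2, at -0.15. Those of all genes were then 0.12 and 0.09. With quantile normalization after normexp the G1/S medians were 0.03 for E2 and 0.08 for Dex+E2.

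Genes of replication licensing and S phase stayed close to their means. Pcna, encoding the sliding clamp of DNA polymerase, was at 5.56, 5.49, 5.24 and 5.50 on Vehicle 1 to 4, 5.45, 5.53, 5.31 and 5.34 on Dex 1 to 4, 5.36, 5.45, 5.40 and 5.43 on E2 1 to 4, and 5.44, 5.52, 5.38 and 5.32 on Dex+E2 1 to 4. The label means spanned 5.41 to 5.45. Mcm3, a subunit of the MCM2-7 helicase, had the smallest unadjusted p of the 34 genes for E2, at 0.14 ± 0.06 (SE) with a limma adjusted p = 0.979. It was at 2.44, 2.28, 2.42 and 2.45 on Vehicle 1 to 4, 2.53, 2.51, 2.54 and 2.51 on Dex 1 to 4, 2.62, 2.60, 2.45 and 2.47 on E2 1 to 4, and 2.38, 2.38, 2.49 and 2.54 on Dex+E2 1 to 4. E2 1 and 2 were the 2 highest arrays, and Vehicle 2 was the lowest. Over the 8 genes, Dex differences ran from -0.05 for Mcm6, whose promoter above carries E2F letters, to 0.12 for Mcm3.

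Genes of G2 and mitosis were as often lower as higher. Mki67, encoding the proliferation antigen Ki-67, was at 5.83, 6.01, 5.78 and 5.52 on Vehicle 1 to 4 and at 5.66, 5.64, 5.71 and 5.42 on Dex 1 to 4. It was at 5.73, 5.66, 5.73 and 5.63 on E2 1 to 4 and at 5.95, 5.73, 5.79 and 5.34 on Dex+E2 1 to 4. Array 4 was the lowest of each label. Dex differed from vehicle by -0.18 ± 0.12 (SE), with a limma adjusted p = 0.578.

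Bub1, a kinase of the spindle checkpoint, was at 1.70, 1.52, 1.57 and 1.64 on Vehicle 1 to 4, 1.71, 1.67, 1.77 and 1.56 on Dex 1 to 4, 1.39, 1.60, 1.78 and 1.61 on E2 1 to 4, and 1.82, 1.84, 1.87 and 1.66 on Dex+E2 1 to 4. Of the Dex+E2 arrays, 3 lay above every other array. A second Bub1 probe correlated with the probe used at -0.26 over the arrays, so the probes of this gene disagree. The difference of Dex+E2 was 0.19 ± 0.08 (SE) from vehicle, with a limma adjusted p = 0.715, and 0.20 ± 0.08 from E2.

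Cdc20, an activator of the anaphase-promoting complex, was at 5.59, 5.46, 5.36 and 5.37 on Vehicle 1 to 4, 5.33, 5.30, 5.45 and 5.13 on Dex 1 to 4, 5.42, 5.49, 5.43 and 5.27 on E2 1 to 4, and 5.24, 5.36, 5.49 and 5.10 on Dex+E2 1 to 4. Within Dex and within Dex+E2, array 3 was the highest, and these are the arrays on which Per1 was low. Its Dex difference was -0.14 ± 0.09 (SE). Ccnb1, encoding cyclin B1, had label means from 2.01 ± 0.13 (SD, n = 4) on Dex+E2 to 2.13 ± 0.21 on vehicle. Foxm1, a transcription factor of the G2 genes, had label means between 2.35 and 2.41. Over the 13 genes, 6 Dex differences were positive with a median of -0.02, 6 E2 differences with a median of -0.01 and 7 Dex+E2 differences with a median of 0.00. All genes had medians of -0.03, -0.02 and -0.02. Under normexp background correction, which left arrays with unequal spreads, the mitosis medians were -0.07, -0.54 and -0.31. Those of all genes were then 0.02, 0.12 and 0.09. With quantile normalization after normexp the mitosis medians were -0.01, 0.01 and -0.02.

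The other genes of the pathway gave 0 calls as well. For Dex, positive differences numbered 7 of 18 among other inhibitors and arrest genes, 16 of 28 among other G1/S and replication genes and 12 of 29 among other G2 and mitosis genes. Over all genes 43.3% were positive, with a median of -0.03. Targets of p53 were positive in 0 of 11, with a median of -0.15, and at an unadjusted p under 0.05 limma counted 1 of them, against 10.9% of all genes. For E2 and for Dex+E2 the p53 targets were positive in 1 of 11, against 44.2% and 45.8% of all genes. Between E2 1 and 2 and Vehicle 3 and 4, which shared a slide, they were positive in 11 of 11, with a median of 0.26. Between Dex 1 and 2 and Vehicle 1 and 2, which shared another, they were positive in 0 of 11, with a median of -0.30. The list was high on 2 of the vehicle arrays these comparisons share, its median relative to each gene's mean being 0.32 on Vehicle 1 and 0.49 on Vehicle 2, and -0.20 and -0.17 on Vehicle 3 and 4.

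Slides held 4 arrays of 2 labels each. Label pairs that met on a slide could be compared there, with 2 arrays a label. These pairs were Dex with vehicle, E2 with vehicle, Dex+E2 with Dex, and Dex+E2 with E2. No slide carried arrays of both vehicle and Dex+E2, or of both Dex and E2. The comparison of Dex+E2 with vehicle therefore ran only across slides. On slide 1, Dex 1 and 2 against Vehicle 1 and 2, limma called 45 of all genes (0.253%) and 0 of the 34. At an unadjusted p under 0.05 it counted 6 of the 34, against 15.8% of all genes. Ccnd3 differed by 0.44 ± 0.10 (SE) with a limma adjusted p = 0.197, Mki67 by -0.27 ± 0.08 with an adjusted p = 0.259, and Cdc20 by -0.21 ± 0.06 with an adjusted p = 0.277. These values rest on single arrays. Without Vehicle 1, which leaves Vehicle 2 alone and assumed to vary like the others, limma called 6678 genes (37.6%) and 13 of the 34, a share close to that of all genes. Among the 13 were Ccne1 at 0.62 ± 0.06, Ccnd3 at 0.55 ± 0.06, Cdk4 at 0.54 ± 0.07, Mki67 at -0.37 ± 0.05 and Cdkn1a at -0.33 ± 0.06. Without Vehicle 2 it called 1520 genes (8.57%) and 2 of the 34, Ccnd3 at 0.34 ± 0.06 and Cdc20 at -0.28 ± 0.05. Without Dex 1 or without Dex 2 it called 0.

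On the other slides limma called 0 genes (0%). At an unadjusted p under 0.05 it counted 2, 6 and 0 of the 34 on slides 2, 3 and 4, against 8.16%, 12.2% and 3.65% of all genes. Cdkn1c had the smallest unadjusted p of the 34 genes on slides 2 and 3, at 0.32 ± 0.08 (SE) between E2 1 and 2 and Vehicle 3 and 4, and at 0.43 ± 0.09 between Dex+E2 1 and 2 and Dex 3 and 4. On both slides array number and label cannot be told apart. On slide 4 the smallest p belonged to Ccnb2, encoding cyclin B2, at -0.20 ± 0.15, where Dex+E2 4 was its lowest array at 4.62.

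**Figure D3:**
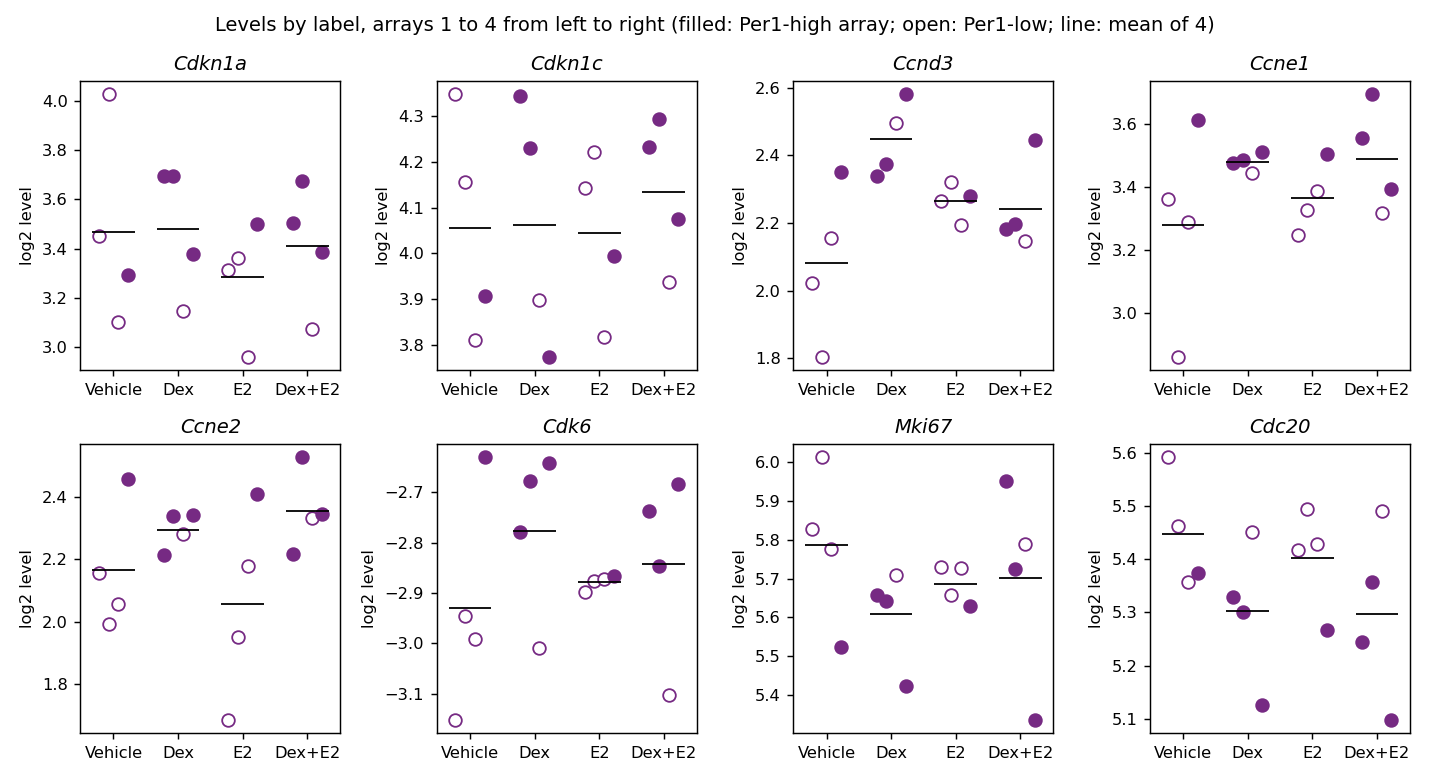
Level (log2, relative to the array's 75th percentile) of 8 cell cycle genes on the 4 arrays of each label, in number order from left to right; filled points are Per1-high arrays, open points Per1-low arrays, and lines are label means. Cdkn1c lies at 4.14 to 4.35 on arrays 1 and 2 and at 3.77 to 4.07 on arrays 3 and 4, and every filled Cdk6 point lies above every open one, by a margin too small to see at E2.

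Leaving out the 4 arrays whose Per1 level opposed their label brought calls among all genes. This alternative was chosen after seeing the data and rests on a measured glucocorticoid target. Every Dex and Dex+E2 array kept was Per1-high, and every vehicle and E2 array kept was Per1-low. The p-values of this fit therefore cannot tell Dex labels from the Per1 class by which arrays were kept. Because that class was measured in these same data, the p-values and calls of this fit are descriptive and are not a test of Dex. Limma then called 432 genes for Dex (2.43%), 460 for Dex+E2 (2.59%) and 982 for the average Dex effect (5.53%). Of the 34 genes it called 0, 0 and 1, counts near those shares of all genes. For Dex+E2 against E2 it called 343 genes (1.93%) and 0 of the 34. The 1 was Ccne2, whose average Dex effect was 0.33 ± 0.08 (SE) with a limma adjusted p = 0.0477. In the same fit the Dex difference was 0.44 ± 0.11 for Ccnd3, 0.33 ± 0.11 for Cdk6 and 0.01 ± 0.17 for Cdkn1c. Cdc20 had an average Dex effect of -0.22 ± 0.07, and none of these genes was called.

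Between the 8 Per1-high and the 8 Per1-low arrays, 1 of the 34 genes had ranges that did not overlap, against 4.09% of all genes. This was Cdk6, the other kinase partner of the D cyclins. It was at -3.15, -2.95, -2.99 and -2.63 on Vehicle 1 to 4 and at -2.78, -2.68, -3.01 and -2.64 on Dex 1 to 4. It was at -2.90, -2.88, -2.87 and -2.87 on E2 1 to 4 and at -2.74, -2.85, -3.10 and -2.68 on Dex+E2 1 to 4. The Per1-high median was -2.71 and the Per1-low median -2.97. The ranges came within 0.01 of each other at E2 4 and E2 3, and a second Cdk6 probe overlapped, with a median difference of 0.05. With quantile normalization and with the deposited log2 table Cdk6 overlapped, and Ccne1 and Cdc20 did not, at 0.18 and -0.24. Of all genes, 4.38% and 4.34% did not overlap with these settings, near the share of the 34.

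By role, the median Per1-high minus Per1-low difference was positive for 8 of 8 G1/S genes, 7 of 8 replication genes, 3 of 13 G2 and mitosis genes and 2 of 5 inhibitors, against 45.7% of all genes. The group medians were 0.12, 0.06, -0.03 and -0.02, and that of all genes was -0.01. The largest G1/S differences besides Cdk6 were 0.24 for Ccne2, 0.19 for Ccne1 and 0.17 for Ccnd3. For Cdk2, E2f1 and Cdk4 they were 0.00, 0.01 and 0.02. The largest on the low side were -0.19 for Ccnb1, -0.18 for Top2a, encoding topoisomerase II alpha, and -0.17 for Cdc20. Other Ccnb1 probes were at -0.09 and -0.01, and a second Top2a probe was at -0.05. With quantile normalization 7 of 8 G1/S and 4 of 13 mitosis genes were positive. With the mean of a gene's probes 6 of 8 G1/S and 2 of 13 mitosis genes were positive. Under normexp background correction, which left arrays with unequal spreads, the counts were 5 of 8 and 13 of 13, so the direction of the mitosis group flips there.

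Other genes of the pathway with ranges that did not overlap were Btg1 and Gadd45a of 18 arrest genes, E2f2 of 28 G1/S and replication genes, Kif23, Anln and Aspm of 29 mitosis genes, 0 of 11 p53 targets, and Egr1 of 7 growth-signal transcription factors. The share over all genes was 4.09%, and with 0 to 3 genes a list these counts set no list apart. Gadd45a, a growth arrest and DNA damage gene, was at 1.35 to 1.66 on Per1-high and 1.69 to 2.66 on Per1-low arrays. Btg1, an antiproliferative gene, was at 3.24 to 3.55 and 3.64 to 4.15. Egr1, an immediate early transcription factor of growth signals, was at -0.13 to 0.36 and 0.58 to 1.17. Anln, encoding the cytokinesis protein anillin, was higher on Per1-high arrays, at 2.71 to 3.13 against 2.23 to 2.63, and so was E2f2, at 1.74 to 1.97 against 1.25 to 1.69. Kif23, a kinesin of the central spindle, was lower, at 2.39 to 2.53 against 2.56 to 2.85, and Aspm, a spindle pole gene, at 0.22 to 0.43 against 0.45 to 0.84.

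Arrays 3 and 4 of a label shared a slide in all 4 labels, and Per1 was low on every array 3 and high on every array 4. Array 4 minus array 3 therefore gives 4 differences within label and slide, and on each slide array 3 lay at the position before array 4. Of the 34 genes, 8 had the same sign in 4 of 4 labels, against 25.3% of all genes. Higher on array 4 in all 4 were 6 of them (all genes 9.66%), and lower were 2 (all genes 15.6%). Cdk6 differed by 0.36, 0.37, 0.01 and 0.42 in vehicle, Dex, E2 and Dex+E2. Ccnd3 differed by 0.19, 0.09, 0.08 and 0.30, and Ccne1 by 0.32, 0.06, 0.12 and 0.08. A second Ccne1 probe was higher on array 4 in 4 of 4 labels as well.

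Cdkn1a was also higher on array 4, by 0.19, 0.23, 0.54 and 0.31 in vehicle, Dex, E2 and Dex+E2. So were Ccne2, with 0.40, 0.06, 0.23 and 0.01, and Cdc6, a loader of the MCM helicase, with 0.18, 0.08, 0.01 and 0.15. Second probes of Ccne2 and Cdc6 were higher in 2 of 4 labels each. On the low side, Mki67 differed by -0.25, -0.29, -0.10 and -0.45, and a second Mki67 probe was lower in 4 of 4 labels. Ccnb1 differed by -0.01, -0.23, -0.16 and -0.20, but its 2 other probes were higher on array 4 in 3 of 4 labels, so the probes of this gene disagree.

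Array 4 was higher than array 3 for 10 of 13 mitosis genes in vehicle, 3 of 12 in Dex, 1 of 13 in E2 and 1 of 13 in Dex+E2. Over all genes it was higher for 53.8%, 34.7%, 50.4% and 39.6%, so all genes also lay mainly on the low side in Dex and Dex+E2. The mitosis medians were 0.10, -0.22, -0.13 and -0.22, and those of all genes 0.02, -0.09, 0.00 and -0.08. Cdc20 was at 0.02 in vehicle and -0.32, -0.16 and -0.39 in Dex, E2 and Dex+E2, and Plk1, a kinase of mitotic entry, at 0.06, -0.33, -0.19 and -0.41. The median of the 13 genes over the labels was -0.18, that of the 8 G1/S genes 0.12 and that of all genes -0.04. With quantile normalization, 15 of the 34 genes had the same sign in 4 labels, against 27.2% of all genes. Among these were 8 of the 13 mitosis genes, all lower on array 4 as were 15.1% of all genes, and 4 of the 8 G1/S genes, all higher as were 12.1%. Of the 29 other mitosis genes, scaled to the 75th percentile, 11 were lower on array 4 in every label, against 15.6% of all genes, and 2 were higher, Anln and Nusap1, against 9.66%. With quantile normalization 14 were lower and 2 higher. Under normexp background correction 0 of 13 mitosis genes had the same sign in 4 labels.

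**Figure D4:**
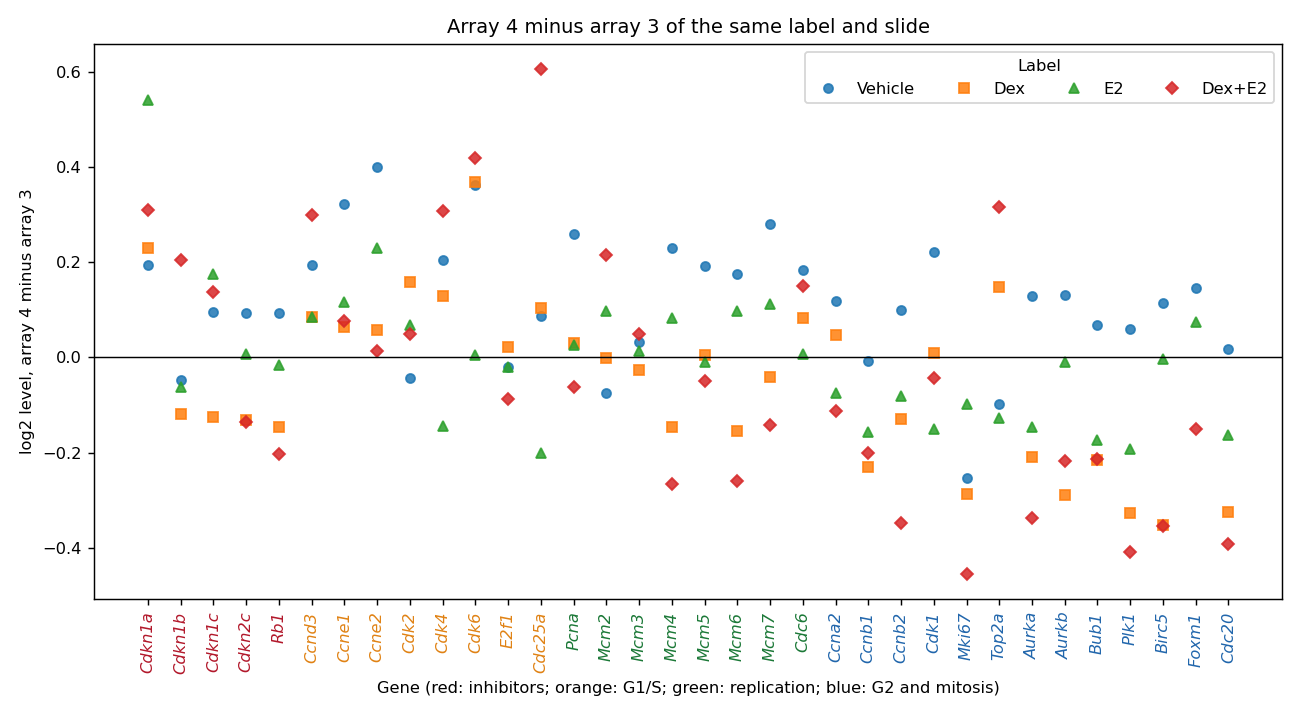
Level on array 4 minus level on array 3 (log2) of the same label and slide, for each of the 34 cell cycle genes, with 1 point a label. Cdkn1a, Ccnd3, Ccne1, Ccne2, Cdk6 and Cdc6 lie above 0 in all 4 labels, Ccnb1 and Mki67 lie below 0 in all 4, and the vehicle points of most other mitosis genes lie above 0 while most of their other points lie below.

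A further split, by array number, was noticed after seeing the data. Over the 8 arrays numbered 1 and 2, Cdkn1c was at 4.14 to 4.35, and over the 8 numbered 3 and 4 it was at 3.77 to 4.07. It was the 1 gene of the 34 whose ranges did not overlap in this split, against 1.62% of all genes. With quantile normalization and with the deposited table its ranges overlapped, at a median difference of 0.32 in both. Of the 5 inhibitors 4 were higher on arrays 1 and 2, with a median of 0.09, against 54.8% of all genes. Besides Cdkn1c and Cdkn1a, the median differences were 0.09 for Cdkn2c, 0.02 for Cdkn1b and -0.09 for Rb1. Of the 18 other inhibitors and arrest genes, 8 were higher on arrays 1 and 2, and the median was -0.01. The 1 of these 18 whose ranges did not overlap was Cdkn2b, encoding the inhibitor p15, at 1.71 to 2.13 on arrays 1 and 2 and 1.23 to 1.61 on arrays 3 and 4. Of the p53 targets, 10 of 11 were higher on arrays 1 and 2, with a median of 0.24 against 0.02 for all genes, and the ranges of Ccng1 and Trp53inp1 did not overlap. Cdkn1a, itself a p53 target, had a median difference of 0.37. Its ranges overlapped, at 3.31 to 4.03 and 2.96 to 3.50.

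Single arrays stood out by role. Vehicle 2 was the lowest of 16 arrays for 9 of the 34 genes, against 18.1% of all genes. Dex+E2 4 was the lowest for 7, against 16.7% of all genes, and 6 of these were among the 13 mitosis genes. E2 1 was the lowest for 7 as well, against 9.62% of all genes, with 4 of the 13 mitosis genes among them. Vehicle 4 was the highest of 16 arrays for 6 of the 34, against 5.5% of all genes. For the 29 other mitosis genes Dex+E2 4 was the lowest array for 15. On this array the mitosis genes had a median of -0.16 relative to each gene's mean and the G1/S genes a median of 0.13. On Vehicle 2 the G1/S genes had a median of -0.19 and the mitosis genes one of -0.06. The part of these arrays in the label differences of single genes was not tested beyond leaving each out.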

How the data were processed

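RNA of 16 samples was labelled with Cy3 and hybridised to one-colour Agilent arrays. Intensities were deposited as processed signals on a linear scale, per the file headers, and extracted with Agilent Feature Extraction 12 per the submitters' processing notes. The correction behind the processed signal was not stated in either. A table of log2 values of the same arrays was also deposited by the authors. No source used here states its method. Its 16 columns share 1 median (4.698) and each matched its own array best, and it served as an alternative only. Control spots and outlier-flagged spots were left out, spots of a probe averaged, and log2 values scaled to each array's 75th percentile (402 to 557 intensity units). A probe was kept when well above background on all 4 arrays of a label. Names came from accessions matched to RefSeq (GRCm38.p6), which named 28223 of 41174 probes, and the brightest probe represented a gene. Limma 3.58.1 (R 4.3.3, lmFit and eBayes with trend) was fitted to all 16 arrays with label as the only term, and again within slides, with Benjamini-Hochberg adjustment over 17771 genes and a threshold of 0.05. The script was tested on simulated data.

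The series design states independent experiments. Deviations of same-number arrays correlated over 0.1 for every number in E2 with Dex+E2 (0.11 to 0.46). No other pair of labels met this criterion (13 of 24 correlations over 0.1 in all, lowest -0.16). E2 2 and E2 4 correlated better with a Dex+E2 array of another number, at 0.17 each, so pairing by number is not established. The number of arrays limits the precision. The planned normexp alternative used median spot and background signals, since no mean-signal column was in the files used. Alternatives were normexp (offset 50), quantile normalization, the deposited table, filters, the mean of a gene's probes, slide or array number as a block, and leaving out arrays. Values of each array were given in full for genes called in any comparison, with ranges that did not overlap between Per1 classes, or with the smallest p of a comparison, and for Cdkn1a, Cdkn1b, Cdkn1c, Rb1, Ccnd1, Ccnd2, Ccne1, Pcna, Ccnb1, Mki67 and Foxm1, in shortened form where little differed. Members and lists were chosen with earlier results of these data known.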

Additional observations from a re-analysis of the deposited data

Results flagged for a closer look

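In 8 of 134 groups of 4 arrays examined, 1 array lay far from the other 3 of its label, by Dixon's criterion, and chance flags about 1 in 20 groups. The arrays concerned were 5, and Dex+E2 4 held 3 of them. On that array Ccnb2 was at 4.62 and Aurka at 4.50, both below their label, and Ccnd3 was above it at 2.45. On E2 1, Mcm5 was low at 4.15 and Birc5, encoding survivin, at 5.21. On E2 4, Ccnb1 was low at 1.98. On Dex+E2 1, Cdk2 was low at -2.59, and on Dex 3, Rb1 was high at 2.03.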

How the results depend on the processing

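The counts of 0 called cell cycle genes in the label comparisons held with no filter, with a filter on all 16 arrays, with quantile normalization, the deposited table, the mean of probes, slide as a block and each array left out, but not under normexp or without the 4 arrays below, and with array number as a replicate block 0 genes were called in all 8 comparisons. The block changed no call. At an unadjusted p under 0.05 it counted 1196 genes and 2 of the 34 for Dex+E2 against E2, against 714 and 2 without it. These were the labels that met the pairing criterion of every same-number correlation over 0.1. For the other label pairs the numbers did not meet the criterion for pairing, and over all 6 label pairs 11 of 24 same-number correlations were the best for their array. Genes called for the average E2 effect were 6 with slide as a block, 7 with no trend in the variance prior and 10678 under normexp. For E2 against vehicle 1 was called with no trend. On slide 1 the count was 80 under normexp, 69 under normexp then quantile, and 1 with no trend. On slides 2, 3 and 4 normexp gave 50, 731 and 15001. Normexp alone left 10th to 90th percentile spreads of 1.58 to 5.67 on the log2 scale, against 10.4 to 11.2. It called 13 of the 34 cell cycle genes for the average E2 effect, against 10678 of all 17771 genes. On slide 3 it called 1 of the 34, against 731 of all genes, and on slide 4 it called 30, against 15001. Its reversed values were, for the average E2 effect, Cdk4 -0.37, Cdk6 0.77, Mcm3 -0.39 and Rb1 -0.32, and on slide 4 Bub1 -0.20, Ccnd3 -0.27, Ccne2 -0.29, Cdk6 0.47, Cdkn1a -0.32, Mcm3 -0.37 and Rb1 -0.28. Leaving out the 4 arrays whose Per1 opposed the label, genes called were 432 for Dex, 460 for Dex+E2, 343 for Dex+E2 against E2 and 982 for the average Dex effect, with 1 cell cycle gene in the last. Of the Per1 ranges, 0 cell cycle genes did not overlap under normexp and 2 with quantile normalization or the deposited table. Of all genes 86 (0.484%) did not overlap under normexp, 4.38% with quantile normalization and 4.34% with the deposited table. Of the array 4 minus array 3 signs, 4 cell cycle genes agreed under normexp and 15 with quantile normalization or the deposited table. Of all genes 2036 (11.5%) agreed under normexp, 27.2% with quantile normalization and 27.5% with the deposited table. Leaving out each array in turn gave 0 to 1 genes for the average Dex effect, 0 to 6678 genes and 0 to 13 cell cycle genes on slide 1, 0 to 64 genes on slide 2, 0 to 247 on slide 3 and 0 to 3 on slide 4. It gave 1 to 2 cell cycle genes with separate Per1 ranges, and 748 to 827 of all genes. For these other changes the cause was not tested.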
